A study of Mus musculus with 23 samples.

Results

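The comparison described here set mouse CD4+ T cells sorted as positive for both CD25 and CD49f (CD25+CD49f+, called double positive below) against CD4+ T cells sorted as negative for both (CD25-CD49f-, called double negative). Its members were taken from the array titles: 4 arrays of double positive cells and 7 arrays of double negative cells, 11 of the 23 arrays of the series. The other arrays held the single positive sorts, 7 arrays with CD49f alone (CD25-CD49f+) and 5 with CD25 alone (CD25+CD49f-), and they served to place the double positive level between its neighbours. Each array measured total RNA of 1 sample on a gene expression array, and its values are log2 signals. All groups were CD4+ T cells labelled as female mice and as biological replicates. The labels used here state no strain, genotype, age, treatment or organ of origin, and they do not say whether cells of several mice were pooled, so p-values refer to the spread between these samples.

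CD25, encoded by Il2ra, gives the interleukin-2 receptor its high affinity, and it is the surface protein most often used to sort regulatory T cells. CD49f is integrin alpha 6, encoded by Itga6, which pairs with integrin beta 1 or beta 4 to bind laminin. Regulatory T cells depend on the transcription factor Foxp3, hold down the responses of other T cells through surface molecules such as CTLA-4 and through cytokines and extracellular adenosine, and carry signs of recent antigen receptor signalling more often than naive T cells do. In bulk samples such as these, fewer cells of a type and less RNA of a gene per cell cannot be told apart.

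Some arrays went against their labels or stood apart, and the results are read with this in view. Although the labels call every sample female, Y-linked transcripts without Xist were found on 3 of the 7 double negative arrays and 2 of the 4 double positive arrays, so both kinds occurred in both groups, and replicate 5 of the CD25+CD49f- cells held both transcripts. On that array the 3 prime signal of Actb exceeded the 5 prime signal by 4.83. The highest such gap was 2.70 on the double negative and 1.69 on the double positive arrays. Replicate 7 of the double negative cells correlated with the rest of its group at a mean of 0.967, against a median of 0.992 for the 23 arrays. It was the array with the lowest such value. Among the 120 named genes that passed the test, all 120 had the same sign within the arrays without Y-linked transcripts, where 98 passed by themselves. All 120 also had the same sign within the Y-linked arrays without Xist, where 95 passed. These genes were chosen by the test on the same arrays, so this agreement in sign is not separate support. Xist on arrays that lack it gave signals of up to 6.50. The Y-linked transcripts Eif2s3y and Kdm5d read at most 3.49 and 4.07 on arrays that lack them, so background differs between probe sets. A mean below 6.50 may therefore be near background, which may limit the size of a difference.

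The gate on CD25 was matched by its transcript and the gate on CD49f was not. Il2ra read 9.45, 9.45, 9.76 and 9.75 on the 4 double positive arrays, against a lowest, median and highest value of 5.15, 5.47 and 5.62 on the 7 double negative arrays. The ranges were far apart, and Il2ra was 4.18 ± 0.12 (SE) higher on the log2 scale, an 18.2-fold difference (limma, adjusted p = 5.41e-18). Since the cells were sorted on CD25 protein, this difference follows the sort. Itga6, the gene of CD49f, read 9.78, 9.84, 9.78 and 9.84 in double positive cells and 9.55, 9.79 and 9.98 (lowest, median, highest) in double negative cells. These ranges overlapped, and the difference was 0.01 ± 0.10 (limma, adjusted p = 0.971), which misses the threshold of 0.05. A further probe set for Itga6 gave 0.13 ± 0.27 (SE). The mean of Itga6 was 9.36 in CD25-CD49f+ and 9.64 in CD25+CD49f- cells. Double positive cells exceeded CD25-CD49f+ cells by 0.45 ± 0.10 (limma, adjusted p = 0.00288). Their difference from CD25+CD49f- cells was 0.16 ± 0.10 (limma, adjusted p = 0.880).

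Itgb1, the beta 1 chain that pairs with CD49f, rose. It read 10.18, 10.14, 10.08 and 10.24 on the double positive arrays and 8.28, 8.93 and 9.28 on the double negative ones, with no overlap, a difference of 1.36 ± 0.27 (adjusted p = 6.04e-04). Its mean was 8.80 in double negative, 8.42 in CD25+CD49f-, 10.16 in double positive and 10.93 in CD25-CD49f+ cells. Double positive cells thus exceeded CD25+CD49f- cells by 1.74 ± 0.29 (adjusted p = 4.73e-04). Replicate 5 of CD25+CD49f- cells read 6.99 and the other arrays of that sort 8.51 to 9.14, so replicate 5 enlarges this difference. Double positive cells differed from CD25-CD49f+ cells by -0.77 ± 0.27 (adjusted p = 0.117).

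**Figure D1:**
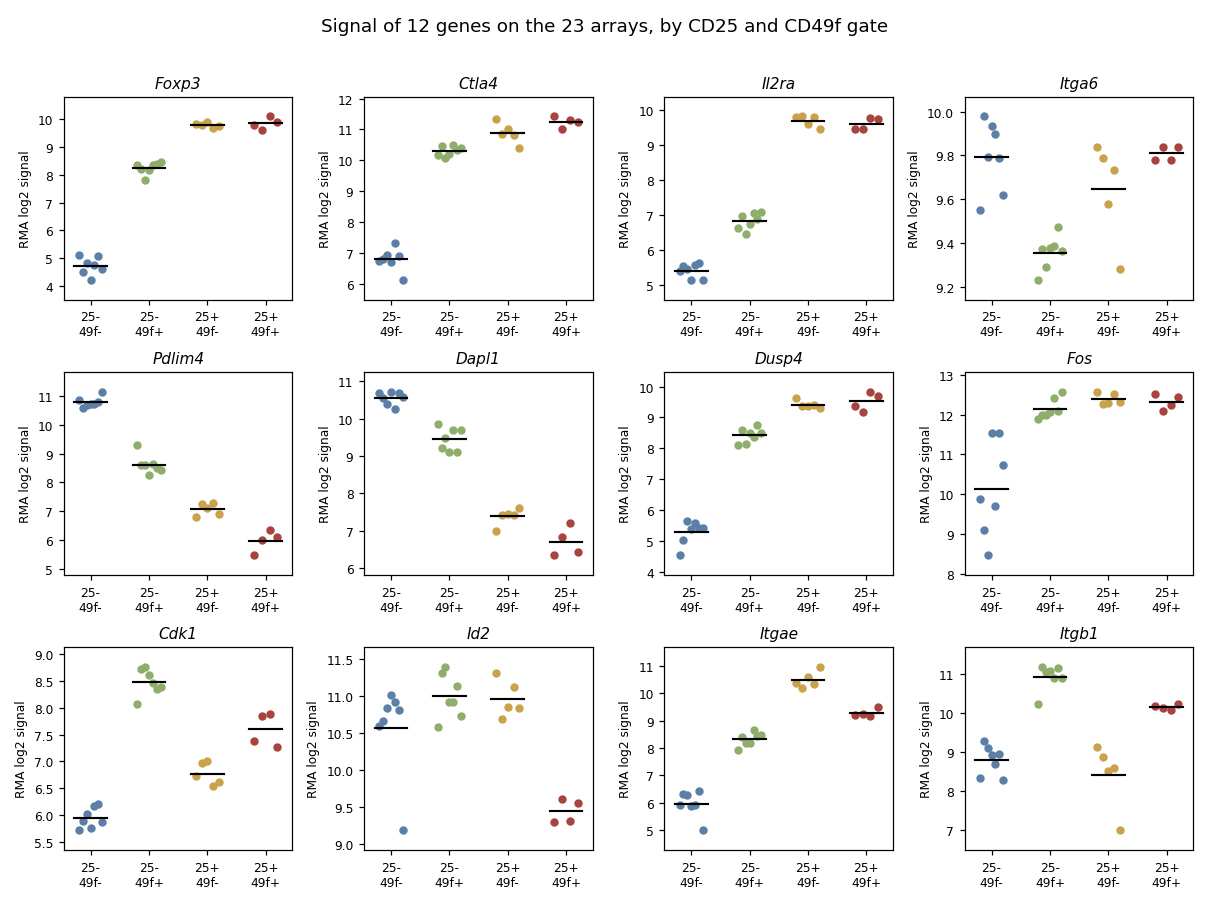
RMA log2 signal (y axis) of 12 genes on each of the 23 arrays, by sort gate (x axis); points are arrays and black lines are group means. Foxp3, Ctla4, Il2ra, Dusp4 and Itgae lie higher in all double positive arrays than in any double negative array, Pdlim4 and Dapl1 lie lower, and Itga6 overlaps between the groups.

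Across the transcriptome, 2396 of 18194 genes differed between double positive and double negative cells at an adjusted p under 0.05, which is 13.2% of the genes tested. Higher in double positive cells were 1389 genes (7.63%), and lower were 1007 genes (5.53%). A difference of at least 1 on the log2 scale, or 2-fold, was found for 399 of the higher and 206 of the lower genes. At 3 log2 units or more, 22 genes were higher and 4 were lower. The values of the 4 double positive and 7 double negative arrays did not overlap for 1951 genes (10.7%). The median difference of all genes was 0.00, and the median standard error was 0.12. For orientation, the same fit separated double positive cells from CD25+CD49f- cells at 332 genes (1.82%: 64 higher, 0.352%, and 268 lower, 1.47%) and from CD25-CD49f+ cells at 1040 genes (5.72%: 511 higher, 2.81%, and 529 lower, 2.91%). These comparisons share the double positive arrays, so their values are given side by side and not as separate support.

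**Figure D2:**
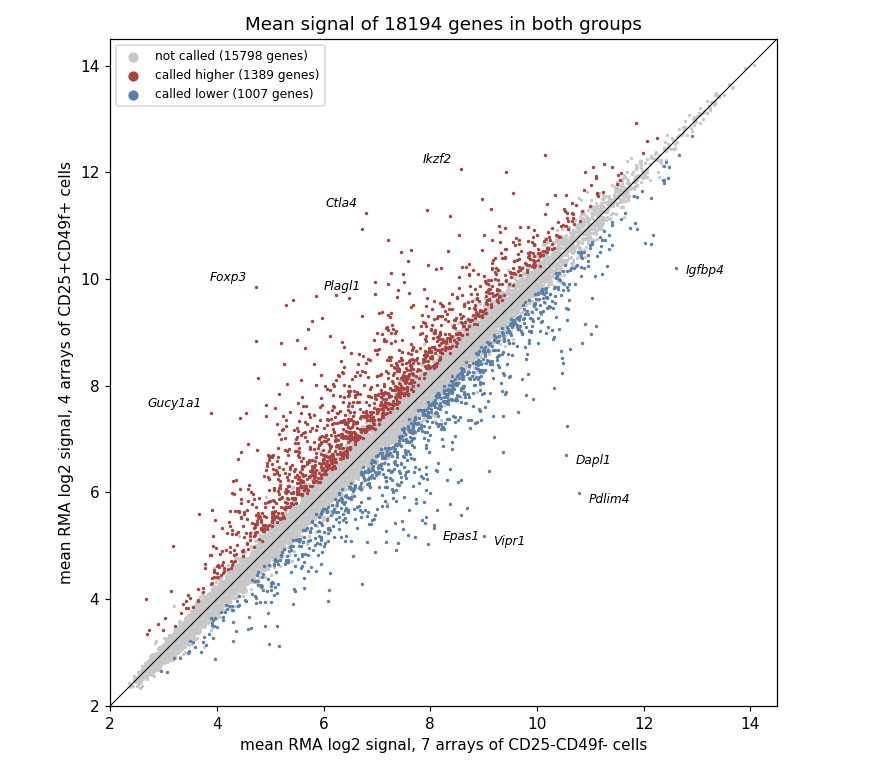
Mean RMA log2 signal of 18194 genes in 7 arrays of double negative cells (x axis) and 4 arrays of double positive cells (y axis), with the line of equal signal. The 1389 genes called higher lie above the line and the 1007 called lower lie below it, with Foxp3 and Ctla4 farthest above and Pdlim4 and Dapl1 farthest below.

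The genes that mark regulatory T cells had the largest median shift of the 30 lists examined. All 21 measured genes of that list rose, with a median difference of 3.06, against 7.63% of all genes called higher and a median of 0.00. Il2ra is among them, and its rise follows the sort on CD25. Foxp3, the factor that defines the lineage, read 9.80, 9.61, 10.09 and 9.88 in double positive cells and 4.21, 4.77 and 5.11 (lowest, median, highest) in double negative cells. No array of one group came near the other, and the difference of 5.11 ± 0.14, or 34.5-fold, was the largest of all genes called (adjusted p = 1.97e-18). Ctla4, an inhibitory receptor that competes for costimulatory ligands, read 11.42, 11.01, 11.30 and 11.24 against 6.13, 6.83 and 7.32. It rose by 4.44 ± 0.16 (adjusted p = 2.07e-16), again without overlap.

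Other members of the regulatory list are transcription factors. Ikzf2, which encodes Helios, read 12.18, 11.96, 11.97 and 12.14 in double positive and 8.22, 8.59 and 8.85 in double negative cells and rose by 3.50 ± 0.12. Ikzf4, which encodes Eos, read 9.53, 9.88, 9.50 and 9.87 against 5.60, 6.29 and 6.77 and rose by 3.46 ± 0.16. Plagl1, a zinc finger factor, read 9.91, 9.68, 9.54 and 9.61 against 5.61, 5.81 and 6.22 and rose by 3.82 ± 0.14. None of the 3 had overlapping ranges, and their adjusted p-values were 8.4e-17, 1.06e-14 and 2.07e-16 (limma). The smallest rise in the list, 1.17, was that of Entpd1, which encodes the ectoenzyme CD39.

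The double positive level of the regulatory list was close to that of CD25+CD49f- cells and above that of CD25-CD49f+ cells. The mean signal of the 21 genes ran from 6.56 to 7.06 on the double negative arrays and from 9.78 to 9.91 on the double positive arrays, with medians of 8.47 in CD25-CD49f+ and 9.82 in CD25+CD49f- cells. Against CD25-CD49f+ cells all 21 genes were higher (2.81% of all genes), with a median difference of 1.16. Against CD25+CD49f- cells 3 were higher and 2 lower (0.352% and 1.47% of all genes), with a median of 0.06. The mean of Foxp3 was 4.74 in double negative, 8.25 in CD25-CD49f+, 9.79 in CD25+CD49f- and 9.85 in double positive cells. The difference from CD25+CD49f- cells was 0.06 ± 0.15 (adjusted p = 0.999), and that from CD25-CD49f+ cells was 1.60 ± 0.14 (adjusted p = 1.35e-08).

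Among 20 measured genes for suppressive effector molecules, 13 rose, 2 fell and 5 missed the threshold, with a median difference of 1.15 (all genes: 7.63% higher, 5.53% lower). Nt5e, which encodes the adenosine-producing enzyme CD73, read 9.86, 9.94, 9.95 and 9.92 in double positive and 6.53, 7.28 and 7.59 in double negative cells. The groups did not overlap, and Nt5e was 2.71 ± 0.14 higher (adjusted p = 3.03e-13). It also exceeded both single positive groups, by 0.95 over CD25+CD49f- cells (adjusted p = 3.99e-04) and by 0.70 over CD25-CD49f+ cells (adjusted p = 0.00221). Cd83, a surface glycoprotein of activated lymphocytes and dendritic cells, read 9.61, 9.84, 9.47 and 9.69 against 5.61, 6.52 and 7.06 and rose by 3.17 ± 0.20. Itgb8, the integrin beta chain through which latent TGF-beta is activated, read 8.56, 8.69, 7.85 and 8.54 against 4.04, 5.11 and 6.23 and rose by 3.15 ± 0.36. Both were separated from the double negative range.

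The effector list was not uniform. Prf1, which encodes perforin, fell by 1.61 ± 0.16, from 7.24, 7.69 and 8.34 (lowest, median, highest) in double negative cells to 5.96, 6.17, 6.42 and 6.13 in double positive cells. The other Prf1 probe set, with means below 6.50 in both groups, gave 0.01 ± 0.14 (SE). Havcr2, which encodes TIM-3, fell by 1.51 ± 0.28, but its double positive values of 3.68, 4.15, 3.89 and 3.93 overlapped the double negative range of 4.11 to 6.56. All of these Havcr2 readings except that highest one lie in or near the range of absent transcripts. Gzmb, which encodes granzyme B and is also a target of interleukin-2 signalling, rose by 1.87 ± 0.12 to 7.80, 8.34, 8.05 and 8.21, from 5.90, 6.26 and 6.49. The 5 genes that missed the threshold were Tgfb1, Il12a, Gzma, Fgl2 and Prdm1. Lrrc32, Areg and Tigit were not analysed here.

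Other large rises were those of genes with varied roles in signalling. Dusp4, a phosphatase that switches off MAP kinases, read 9.38, 9.17, 9.84 and 9.69 in double positive and 4.53, 5.40 and 5.65 in double negative cells, a rise of 4.23 ± 0.17. Rgs1, which dampens signalling by chemokine receptors, read 11.15, 10.68, 10.96 and 10.97 against 6.17, 6.44 and 7.80, a rise of 4.23 ± 0.24. Ntn4, which encodes the secreted protein netrin 4, read 8.97, 8.89, 8.90 and 8.59 against 4.23, 4.84 and 5.01, a rise of 4.11 ± 0.14. In each of the 3 the lowest double positive array was above the highest double negative array, and the adjusted p-values were 8.61e-16, 1.17e-12 and 4.28e-17. Socs2, a feedback inhibitor of cytokine signalling, rose by 3.34 ± 0.13. The double negative means of Foxp3, Il2ra, Dusp4, Ntn4 and Socs2 lie below 6.50, so the sizes of their rises may be limited by background.

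Genes switched on early after T cell receptor engagement rose as a group: 22 of 27 were called higher and 2 lower, with a median difference of 1.36 (88.9% called, beside 13.2% of all genes). Nr4a1, an orphan nuclear receptor used as a reporter of receptor signalling, read 10.39, 10.02, 10.30 and 10.18 in double positive and 8.15, 8.52 and 9.05 in double negative cells and rose by 1.63 ± 0.16 (adjusted p = 2.98e-08). Nr4a3, its relative, read 8.49, 8.64, 8.59 and 8.41 against 6.78, 7.28 and 7.68 and rose by 1.30 ± 0.12 (adjusted p = 6.1e-09). Bhlhe40, a transcription factor of activated T cells, read 9.44, 8.64, 9.42 and 9.02 against 6.78, 7.20 and 7.74 and rose by 1.85 ± 0.16. The ranges were separate for all 3. Jund, Myc and Ier2 missed the threshold.

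The members called lower were Ier3 and Fosl2. Ier3 fell by 0.50 ± 0.11 and Fosl2, an AP-1 subunit, fell by 0.58 ± 0.16, both with means below 6.50 in both groups. The Fosl2 call was lost without replicate 2 or 4 of the double positive cells, and its other probe set gave -0.04 ± 0.09 (SE). Against CD25+CD49f- cells no gene of the 27 was higher and 1 was lower (0.352% and 1.47% of all genes), with a median of -0.03. Against CD25-CD49f+ cells 3 were higher and 2 lower (2.81% and 2.91% of all genes), with a median of 0.24.

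Immediate-early genes also respond to tissue handling, so the stress list is set beside them. Of 16 measured genes for heat shock and dissociation stress, 5 rose and none fell (31.2% called, beside 13.2% of all genes), at a median of 0.50. Of these, 2 were called on the arrays without Y-linked transcripts and 1 on the Y-linked arrays, and 3 of the 5 (Fos, Jun and Egr1) are on the early gene list too. Fos read 12.51, 12.08, 12.24 and 12.44 in double positive cells and 8.47, 9.88 and 11.55 in double negative cells, a rise of 2.18 ± 0.38 (adjusted p = 1.63e-04). Jun read 11.85, 11.20, 11.79 and 11.56 against 8.24, 9.37 and 11.12 and rose by 2.05 ± 0.38. For both genes the double negative arrays were widely spread, yet all lay below the lowest double positive array. The mean of the 16 stress genes ran from 9.51 to 10.53 on the double negative arrays and from 10.49 to 10.63 on the double positive arrays, so these ranges overlapped slightly. The part of handling stress in the rise of the early genes was not tested.

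The interleukin-2 receptor and its STAT5 targets were split. Of 20 measured genes, 8 rose, 2 fell and 10 missed the threshold, with a median of 0.46 (50.0% called, beside 13.2% of all genes). Il2ra, whose rise follows the sort, is among the 8. Il2rb, the beta chain that signals together with CD25, read 10.34, 10.59, 10.57 and 10.56 in double positive and 7.14, 7.48 and 7.81 in double negative cells. It was separated and 3.06 ± 0.11 higher (adjusted p = 2.66e-16). Il2rg, the shared gamma chain, was not analysed here. Pim2, a kinase induced by cytokines, fell by 0.82 ± 0.16, and Ccnd2, the cyclin D2 gene, fell by 0.44 ± 0.10. The Ccnd2 call was lost when its probe sets were averaged or another was chosen.

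Of the TNF receptor superfamily, 7 of 18 measured genes rose and 1 fell (44.4% called, beside 13.2% of all genes). Tnfrsf4, which encodes the costimulatory receptor OX40, read 11.07, 11.17, 11.33 and 11.15 against 7.94, 8.45 and 8.76 and rose by 2.82 ± 0.14. Tnfrsf9, which encodes 4-1BB, read 9.88, 10.10, 10.39 and 9.97 against 7.03, 7.34 and 8.03 and rose by 2.60 ± 0.17. Tnfrsf18, which encodes GITR, read 10.64, 10.60, 10.76 and 10.76 against 9.12, 9.40 and 9.47 and rose by 1.38 ± 0.12. No double positive array fell into the double negative range of these receptors. The TNF receptors themselves moved in opposite directions, Tnfrsf1b up by 1.71 ± 0.14 and Tnfrsf1a down, where it fell by 0.53 ± 0.12.

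Inhibitory and costimulatory receptors rose in 10 of 19 measured cases and fell in 3, with a median of 0.44 (68.4% called, beside 13.2% of all genes). The count of falls was 1 without replicate 3 of the double positive cells, and 0 on the arrays without Y-linked transcripts. Cd200, a ligand that restrains myeloid cells, read 9.87, 9.86, 9.67 and 9.76 in double positive and 6.63, 7.36 and 7.95 in double negative cells and rose by 2.40 ± 0.16. Lag3, an inhibitory receptor that binds MHC class II, rose by 1.31 ± 0.13, and Slamf1, a receptor that binds itself on neighbouring cells, rose by 1.26 ± 0.12. Btla, an inhibitory receptor, fell by 0.33 ± 0.09 (adjusted p = 0.0132). That call was lost without replicate 3 of the double positive cells.

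**Figure D3:**
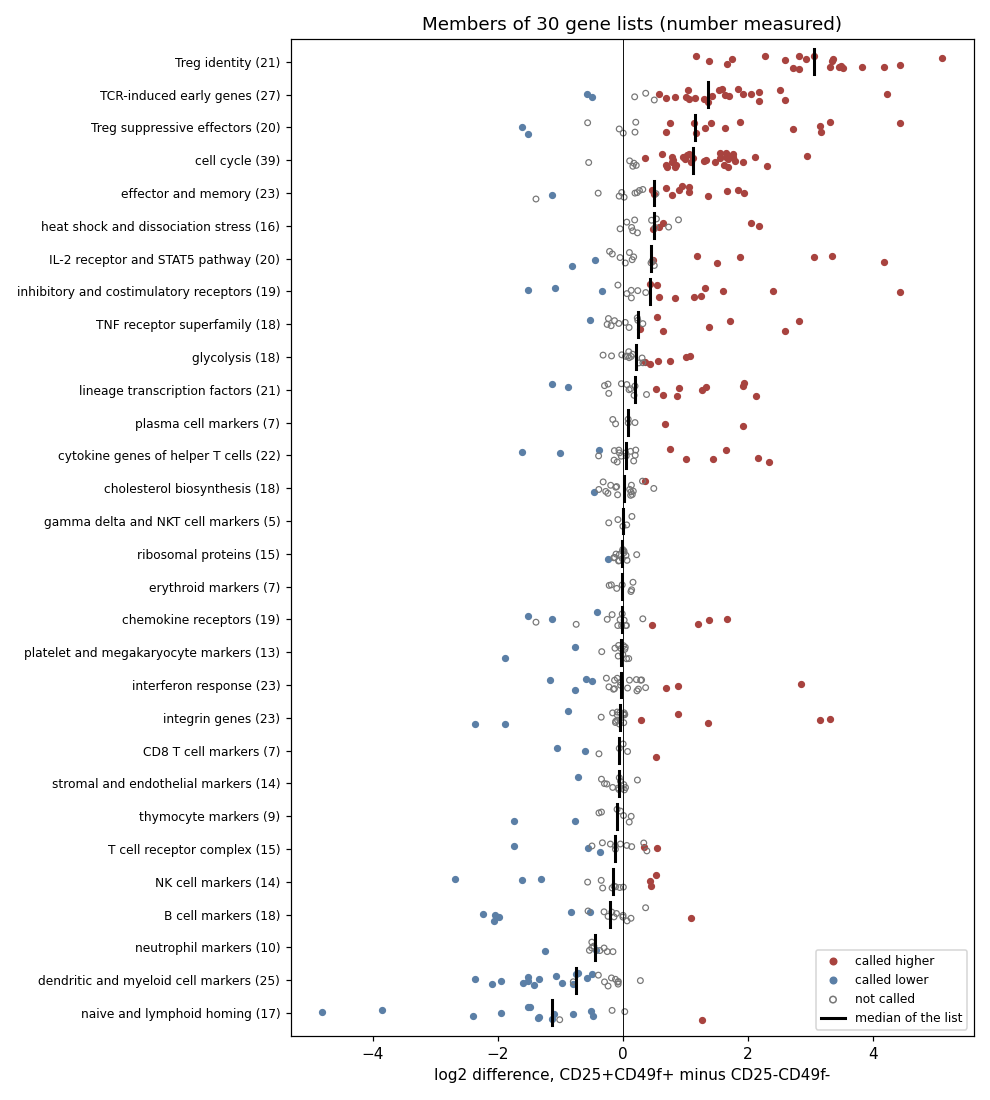
Log2 difference, double positive minus double negative (x axis), of each measured member of 30 gene lists (rows, ordered by median, with the number measured); filled points passed the test and black ticks are medians. The regulatory list lies wholly to the right of 0 with its median at 3.06, the early gene and cell cycle lists lie mostly to the right, and the naive and the dendritic and myeloid lists lie to the left.

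Genes of effector and memory T cells were called in different directions against the double negative and the single positive cells. Against double negative cells 12 of 23 rose and 1 fell, with a median of 0.51 (56.5% called, beside 13.2% of all genes). Without replicate 1 or replicate 7 of the double negative cells 3 fell. Against CD25-CD49f+ cells none of the 23 was higher and 12 were lower, at a median of -0.65, and against CD25+CD49f- cells 1 was higher and 9 were lower, at a median of -0.27. Of all genes, 2.81% were higher and 2.91% lower against CD25-CD49f+ cells, and 0.352% and 1.47% against CD25+CD49f- cells. Anxa2, which encodes a membrane-binding annexin, had means of 8.18 in double negative, 8.59 in CD25+CD49f-, 8.96 in double positive and 10.05 in CD25-CD49f+ cells. The double positive values of 8.87, 9.13, 9.07 and 8.78 stood above the double negative range of 7.89 to 8.31, by 0.78 ± 0.10, and below CD25-CD49f+ cells by a difference of -1.08 ± 0.10 (adjusted p = 5.86e-08). Rora, a nuclear receptor of Th17 and memory cells, was 0.90 ± 0.11 above double negative cells, and its differences from CD25+CD49f- and CD25-CD49f+ cells were -0.51 and -0.62.

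Lineage transcription factors followed no single direction, with 9 of 21 higher and 2 lower (52.4% called, beside 13.2% of all genes). Nfil3, a leucine zipper repressor, read 7.59, 7.24, 7.76 and 7.42 against 4.86, 5.50 and 5.59 and rose by 2.12 ± 0.15. Gata3, the factor of Th2 cells that regulatory cells also use, read 9.12, 9.03, 9.39 and 9.27 against 8.08, 8.30 and 8.55 and rose by 0.87 ± 0.11. The ranges were separate in both cases. Runx3, a factor of Th1 and cytotoxic cells, fell by 0.88 ± 0.17, although the double positive values of 7.54, 7.80, 7.74 and 7.71 overlapped the double negative range through replicate 7, which read 7.71 there. Without replicate 7 the difference was -1.03. On all arrays, the other Runx3 probe set gave 0.05 ± 0.14 (SE).

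Among cytokine genes, 6 of 22 rose, 3 fell and 13 were not called (40.9% called, beside 13.2% of all genes). Lta, which encodes lymphotoxin alpha, read 8.32, 8.32, 8.69 and 8.41 against 6.59, 6.74 and 7.18 and rose by 1.65 ± 0.12. Ifng, which encodes interferon gamma, read 7.54, 6.93, 7.67 and 7.01 against 4.34, 4.93 and 5.95 and rose by 2.15 ± 0.25, but it was lower than in CD25-CD49f+ cells by a difference of -1.36 ± 0.25 (adjusted p = 7.51e-04). Both genes were separated from the double negative arrays. Ccl5, a chemokine of memory and cytotoxic cells, fell by 1.61 ± 0.16, from 9.22, 9.95 and 10.17 to 7.72, 8.69, 8.32 and 8.17.

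Of 19 chemokine receptor genes measured, 4 rose, 3 fell and 12 missed the threshold (36.8% called, beside 13.2% of all genes). Without replicate 7 of the double negative cells 5 fell. Ccr6, which directs Th17 and regulatory cells toward CCL20, read 8.41, 8.54, 8.81 and 8.93 against 6.72, 7.0 and 7.33 and rose by 1.67 ± 0.15. CD25+CD49f- cells held more of it still, a difference of -1.33 ± 0.16 (adjusted p = 6.32e-06). Ccr7, which takes naive cells into lymph nodes, fell by 1.13 ± 0.15, from 10.89, 11.15 and 11.55 to 9.86, 10.15, 10.29 and 10.07. Ccr9, a receptor for homing to the gut, fell by 1.52 ± 0.22 against double negative cells, and its difference from CD25+CD49f- cells was -2.36 ± 0.23 (adjusted p = 1.65e-07).

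Integrin genes divided in the same manner, 5 of 23 higher, 3 lower and 15 not called, Itga6 among the latter (34.8% called, beside 13.2% of all genes). Itgae, which encodes the CD103 chain that binds E-cadherin, read 9.19, 9.23, 9.17 and 9.51 in double positive and 4.99, 5.92 and 6.44 in double negative cells and rose by 3.31 ± 0.20. Its level was nevertheless -1.21 ± 0.21 relative to CD25+CD49f- cells (adjusted p = 8.34e-04). Itgb3, the beta chain of platelet and vitronectin integrins, fell by 1.88 ± 0.14, from 7.59, 7.88 and 8.44 to 5.78, 6.31, 6.13 and 5.95. Itgax, the CD11c gene of dendritic cells, fell by 2.36 ± 0.29, from 7.39, 8.73 and 9.68 to 5.84, 6.13, 6.45 and 6.47.

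Cell cycle genes rose almost throughout. Of 39 measured, 34 were called higher, none lower and 5 (Ccne1, Cdc25c, Kif23, Tpx2 and Tyms) not called, with a median difference of 1.13 (87.2% called, beside 13.2% of all genes). The promoters of 4 members called higher are shown because the same short motif recurs in them; they were chosen after the motif was seen. They are RefSeq sequences (GRCm38.p6) of the 120 bases before the start of each gene, with each CCAAT and TTTGAA, on either strand, in capitals. CCAAT is the box bound by NF-Y, and TTTGAA is the core of the cell cycle genes homology region. The promoters shown are those of Ccnb2 (chr9:70421555-70421674, minus strand), Cdk1 (chr10:69352913-69353032, minus strand), Top2a (chr11:99024190-99024309, minus strand) and Rrm2 (chr12:24708134-24708253, plus strand).
Ccnb2: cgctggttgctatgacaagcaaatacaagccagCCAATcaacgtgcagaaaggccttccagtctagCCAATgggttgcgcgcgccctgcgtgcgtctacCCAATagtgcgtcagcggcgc
Cdk1: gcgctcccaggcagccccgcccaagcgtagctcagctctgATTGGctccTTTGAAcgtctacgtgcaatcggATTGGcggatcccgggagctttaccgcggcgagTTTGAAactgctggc
Top2a: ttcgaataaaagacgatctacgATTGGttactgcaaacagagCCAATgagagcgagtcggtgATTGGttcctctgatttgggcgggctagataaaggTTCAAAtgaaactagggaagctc
Rrm2: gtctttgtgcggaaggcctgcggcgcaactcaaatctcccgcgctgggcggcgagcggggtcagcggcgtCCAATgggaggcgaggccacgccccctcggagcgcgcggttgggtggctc
In the 250 bases before the start, on either strand, CCAAT was present in 25 of the 33 cell cycle genes with a sequence (75.8%), against 35.7% of 14453 genes. TTTGAA was present in 9 of the 33 (27.3%), against 11.9% of all, and at a similar share in the regulatory list, in 4 of 15 (26.7%), but in 1 of 19 early genes (5.26%). CCAAT was found in 3 of 19 early receptor-induced genes (15.8%) and in 3 of 15 regulatory genes. Of E2F motifs only TTTCCCGC was searched, and it was in none of the 33 cell cycle promoters (1.41% of all). With so low a share over all genes and no other form searched, this absence says little about E2F sites. The AP-1 motif TGANTCA was in 1 of the 19 early gene promoters (5.26%, against 5.58% of all), as was the cAMP response element TGACGTCA (5.26%, against 2.27%). The forkhead motif TGTTTAC and the STAT motif TTCNNNGAA were each in 1 of the 15 regulatory promoters (6.67%, against 2.51% and 6.3% of all). These matches describe letters in the sequence, and no binding was measured.

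The cell cycle genes were measured as follows. Melk, a kinase of dividing cells, read 7.26, 7.56, 7.62 and 7.12 in double positive and 3.37, 4.55 and 5.11 in double negative cells and rose by 2.95 ± 0.23 (adjusted p = 4.03e-10). Rrm2, the ribonucleotide reductase subunit that limits DNA synthesis, read 10.18, 10.59, 10.24 and 10.04 against 6.76, 8.02 and 8.47 and rose by 2.31 ± 0.22 (adjusted p = 1.9e-08). Cdk1, the kinase that drives mitosis, read 7.38, 7.85, 7.89 and 7.26 against 5.71, 5.89 and 6.20 and rose by 1.66 ± 0.14 (adjusted p = 1.82e-09). All 3 were separated from the double negative arrays, as was Tk1, the thymidine kinase gene, at 1.66 ± 0.17. Ccnb2, a mitotic cyclin, rose by 1.68, and Top2a, which untangles DNA, rose by 1.76.

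Double positive cells took a middle place in the cell cycle list. The mean signal of the 39 genes had medians of 6.54 in double negative, 7.15 in CD25+CD49f-, 7.73 in double positive and 8.47 in CD25-CD49f+ cells. Against CD25+CD49f- cells 12 of the 39 were higher and none lower (0.352% and 1.47% of all genes), with a median of 0.62. Against CD25-CD49f+ cells none was higher and 25 were lower (2.81% and 2.91% of all genes), with a median of -0.89. Cdk1 differed by 0.82 ± 0.15 from CD25+CD49f- cells (adjusted p = 0.00153) and by -0.89 ± 0.14 from CD25-CD49f+ cells (adjusted p = 9.92e-05).

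**Figure D4:**
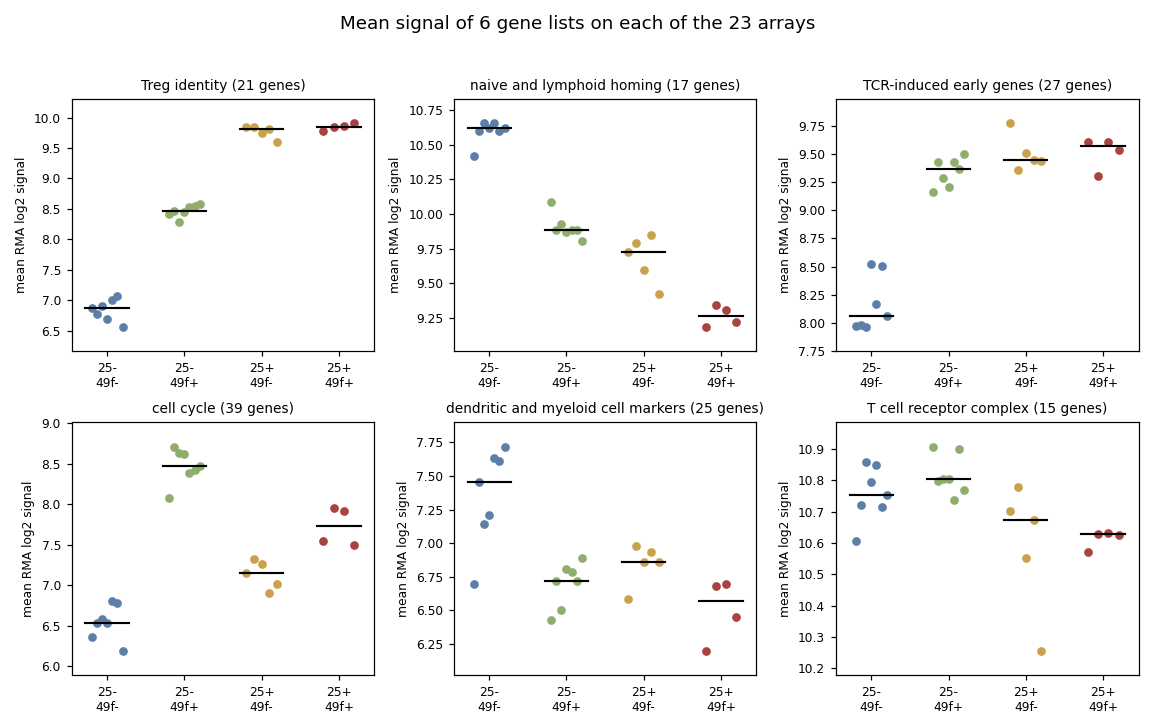
Mean RMA log2 signal (y axis) of 6 gene lists on each of the 23 arrays by sort gate (x axis); points are arrays and black lines are group medians. Double positive arrays lie level with CD25+CD49f- arrays on the regulatory list, lowest on the naive list, and between CD25+CD49f- and CD25-CD49f+ arrays on the cell cycle list.

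Genes of naive T cells and of lymph node homing fell. Of 17 measured, 13 were lower in double positive cells, 3 (Foxp1, Foxo1 and Txk) missed the threshold and 1 was higher, with a median difference of -1.13 against 5.53% of all genes called lower. Pdlim4, a cytoskeletal adaptor, read 5.47, 6.01, 6.34 and 6.11 on the double positive arrays and 10.58, 10.73 and 11.16 (lowest, median, highest) on the double negative arrays. The gap exceeded 4 log2 units, and Pdlim4 fell by 4.81 ± 0.16 (adjusted p = 4.28e-17), the largest fall of any gene called. Dapl1, a gene of naive T cells, read 6.35, 6.84, 7.22 and 6.43 against 10.25, 10.58 and 10.72 and fell by 3.84 ± 0.16 (adjusted p = 2.74e-15).

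Igfbp4, which binds insulin-like growth factors, read 9.94, 10.11, 10.08 and 10.72 in double positive and 12.29, 12.59 and 12.77 in double negative cells and fell by 2.40 ± 0.14. Lef1, the factor that maintains naive and stem-like T cells, read 10.65, 10.73, 10.63 and 10.70 against 11.91, 12.02 and 12.19 and fell by 1.35 ± 0.10. Both were fully separated. Id3, an inhibitor of E proteins that regulatory cells use too, was the exception and rose by 1.27 ± 0.14, from 6.98, 7.16 and 7.74 to 8.29, 8.80, 8.60 and 8.46. The naive list lay lowest in double positive cells: the mean of the 17 genes ran from 10.42 to 10.65 in double negative cells and from 9.19 to 9.34 in double positive cells, with medians of 9.89 in CD25-CD49f+ and 9.73 in CD25+CD49f- cells. Tcf7 was not analysed here.

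Other large falls were spread over varied functions. Vipr1, a receptor for vasoactive intestinal peptide on resting T cells, read 4.49, 5.33, 5.29 and 5.63 against 8.80, 8.86 and 9.63 and fell by 3.82 ± 0.20. Pde3b, a phosphodiesterase of cyclic AMP, read 7.17, 7.82, 7.06 and 6.94 against 8.88, 10.62 and 11.29 and fell by 3.31 ± 0.31. App, the amyloid precursor protein gene, read 6.45, 6.88, 6.99 and 6.68 against 8.86, 9.50 and 9.72 and fell by 2.62 ± 0.16. The ranges were separate in all 3, with adjusted p-values of 1.55e-13, 9.01e-09 and 4.67e-12. Cnga1, Tdrp, Lypd6b and Arhgap29 fell as well, with differences of -3.00, -2.98, -2.67 and -2.58 and no overlap. Klrd1, the CD94 chain of natural killer receptors, fell by 2.68 ± 0.21, from 8.75, 9.02 and 9.50 to 5.72, 6.88, 6.52 and 6.51.

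Of the genes on the B cell list, 4 that serve antigen presentation fell, and so did part of the dendritic and myeloid list. H2-Aa, an MHC class II chain, read 8.30, 9.49, 9.78 and 8.93 in double positive and 10.32, 11.02 and 11.87 in double negative cells and fell by 1.98 ± 0.25 (adjusted p = 1.4e-06). Cd74, the invariant chain that escorts class II, read 8.28, 9.39, 9.53 and 8.70 against 9.97, 11.27 and 11.97 and fell by 2.04 ± 0.28 (adjusted p = 5.97e-06). H2-Ab1 and H2-Eb1 fell too, with differences of -2.23 and -2.06. None of the 4 overlapped between the groups. The mean of H2-Aa was 10.83 in CD25+CD49f- cells, against 9.62 in the CD25-CD49f+ sort, and it differed by -1.70 ± 0.27 between double positive and CD25+CD49f- cells (adjusted p = 2.08e-04).

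Of 25 measured dendritic and myeloid markers, 15 fell, none rose and 10 missed the threshold, with a median of -0.75 (5.53% of all genes were called lower). On the arrays without Y-linked transcripts 7 fell, and on the Y-linked arrays 13. Their mean signal ran from 6.70 to 7.72 on the double negative arrays and from 6.20 to 6.70 on the double positive arrays, and these ranges overlapped through replicate 1 of the double negative cells. Tyrobp, a signalling adaptor of myeloid and natural killer cells, read 6.82, 7.62, 7.92 and 7.34 against 8.54, 9.40 and 10.48 and fell by 1.94 ± 0.26. Ctsh, a cathepsin gene, read 5.59, 6.74, 6.46 and 6.12 against 7.53, 8.37 and 8.82 and fell by 2.09 ± 0.28. The means of Itgam, Cd14 and Xcr1 were below 6.50 in both groups, and those of Lyz2, Cst3 and Cybb were above 7 in both and not called. How far RNA of such cells contributes to the genes called lower was not tested.

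Of 18 measured B cell markers, 6 fell and 1 rose (38.9% called, beside 13.2% of all genes), and 4 of the 6 are the class II and Cd74 genes. The others that fell were Cd22 and Fcrla. Cd79a, Pax5 and Ebf1 had means below 6.50 in both groups and were not called. Cd79b rose by 1.08 ± 0.32 with overlapping ranges, a call that was lost without replicate 2 or 3 of the double positive cells. Among 14 natural killer markers 3 fell and 3 rose (42.9% called). Fasl, which encodes the Fas ligand, fell by 1.30 ± 0.09, from 6.97, 7.10 and 7.35 to 5.72, 5.95, 5.91 and 5.81, while Nkg7 rose by 0.46 ± 0.10. The other Fasl probe set gave -0.43 ± 0.20 (SE) and was not called. Among 7 genes typical of CD8 T cells (42.9% called), Gzmk and Crtam fell (differences of -1.05 and -0.61), Eomes was called higher at 0.53 (adjusted p = 0.0346), and Cd8a and Cd8b1 were not called. The Eomes call was lost without replicate 1, 4 or 7 of the double negative cells (adjusted p = 0.0706, 0.0551 and 0.0543) and without replicate 1, 2 or 3 of the double positive cells.

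The remaining cell type lists held 0 to 2 calls each. Of 7 plasma cell markers 2 rose and none fell (28.6% called), Irf4 by 1.92 ± 0.25 and Xbp1 by 0.67 ± 0.19. The Xbp1 call was lost without replicate 1 or 2 of the double positive cells. Irf4 is also a factor of activated T cells. Of 10 neutrophil markers 2 fell, Mpo (-1.24) and Mmp9 (-0.42) (20% called). Of 13 platelet markers 2 fell, Itgb3 and F2rl2 (15.4% called, beside 13.2% of all genes), and of 9 thymocyte markers 2 fell, Themis and Dntt (22.2% called). The F2rl2 call was lost without replicate 2 or 4 of the double positive cells, and its other probe set gave 0.18 ± 0.13 (SE), a difference of the opposite sign. One fall was called among 14 stromal and endothelial markers (7.14% called), that of Cdh5 (-0.72), with both means below 6.50. No call was made among 7 erythroid markers or 5 markers of gamma delta and natural killer T cells.

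The T cell receptor complex held calls in both directions. Of 15 measured genes, 2 rose, 3 fell and 10 missed the threshold, with a median of -0.12 (33.3% called, beside 13.2% of all genes). The defining CD3 genes Cd3e, Cd3d and Cd3g had means between 11.66 and 12.04 in both groups. Themis, a signalling protein of developing T cells, was the exception in size: it read 7.45, 7.66, 7.27 and 7.32 against 8.82, 9.22 and 9.33 and fell by 1.74 ± 0.10 (adjusted p = 6.95e-13). Cd4 read 9.06, 9.10, 9.13 and 9.20 against 9.52, 9.61 and 10.09 and fell by 0.56 ± 0.10, without overlap, although another probe set did not give the call. Cd5, a negative regulator that follows receptor signal strength, rose by 0.54 ± 0.16 (adjusted p = 0.0255), a call lost without replicate 3 or 4 of the double positive cells. Lck was not analysed here.

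Metabolic, interferon and ribosomal lists differed in how many genes were called. Of 18 glycolysis genes 6 rose and none fell (33.3% called), with a median of 0.21, led by Slc2a3, a glucose transporter, which read 11.14, 11.11, 11.38 and 11.27 against 9.95, 10.04 and 10.54 and rose by 1.07 ± 0.12. Of 18 cholesterol synthesis genes, 1 rose and 1 fell (11.1% called, beside 13.2% of all genes). Of 23 interferon response genes 3 rose and 4 fell (30.4% called), with a median of -0.04, and 2 fell without replicate 1 or 4 of the double positive cells. Gbp3, a guanylate-binding protein gene, rose by 2.84 ± 0.21, from 6.22, 7.40 and 7.84 to 10.15, 10.07, 9.98 and 10.23, while Oasl2 and Oas2, antiviral synthetase genes, fell, with differences of -1.17 and -0.77. Of 15 ribosomal protein genes, 1, Rpl8, fell by 0.24 ± 0.07, and the median was -0.01. The Rpl8 call was lost without any single one of the 4 double positive arrays and without replicate 3, 4 or 5 of the double negative cells.

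Some genes set double positive cells apart from both single positive groups as well as from double negative cells. They were chosen for passing the test in all 3 comparisons in the same direction, by the largest smallest difference, so their differences are a description of that choice. Gucy1a1, a subunit of the nitric oxide receptor guanylate cyclase, had means of 3.89 in double negative, 5.62 in CD25-CD49f+, 6.13 in CD25+CD49f- and 7.48 in double positive cells. Its double positive arrays read 7.37, 7.89, 7.34 and 7.35, with replicate 2 above the others. Spry1, an inhibitor of MAP kinase signalling, had means of 6.97, 8.63, 8.83 and 9.72 in the same order. The step from CD25+CD49f- cells was 1.35 for Gucy1a1 and 0.89 for Spry1.

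Plagl1 exceeded CD25+CD49f- cells by 1.00 and CD25-CD49f+ cells by 2.19. Npas4, an activity-induced transcription factor best known from neurons, read 4.70, 5.20, 5.18 and 4.88 in double positive cells. These values are below 6.50 and so possibly near background. Npas4 exceeded the single positive groups by 1.17 and 1.28. Serpinc1, the antithrombin gene, exceeded them by 0.89 and 1.66, and Slc9b2, an exchanger of sodium and protons, by 0.90 and 0.88. Nrp1, a semaphorin receptor found on regulatory cells of thymic origin, exceeded them by 1.04 (adjusted p = 0.0451) and 0.87 (adjusted p = 0.0419). Both of these Nrp1 calls were lost without replicate 1, 2 or 4 of the double positive cells, and without several single arrays of each other sort, with adjusted p-values of up to 0.159 and 0.145. Capn3, a calcium-dependent protease gene, exceeded CD25+CD49f- cells by 1.21 (adjusted p = 0.0274), a call lost without replicate 3 of that group and without replicate 3 or 4 of the double positive cells.

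St6galnac2, a sialyltransferase gene, was the clearest of the genes lowest in double positive cells. It read 6.84, 7.11, 7.18 and 6.99 there, and its means in double negative, CD25-CD49f+ and CD25+CD49f- cells were 9.19, 8.91 and 8.86, so the other sorts lay close together. The differences from the single positive groups were -1.83 (adjusted p = 8.44e-10) and -1.88 (adjusted p = 1.98e-10). Epas1, which encodes the hypoxia factor HIF-2 alpha, read 5.28, 5.61, 5.13 and 5.32 against means of 8.06, 7.13 and 6.78. Atp8b4, a lipid flippase gene, read 5.12, 5.14, 5.11 and 4.76 against 7.95, 6.64 and 5.96. The means of both genes declined in that order, with the double positive cells last.

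Id2, an inhibitor of E proteins, read 9.30, 9.61, 9.30 and 9.56 in double positive cells and 9.18, 10.81 and 11.01 (lowest, median, highest) in double negative cells. The ranges overlapped through replicate 7 alone, and the difference was -1.13 with it and -1.36 without it. Its differences from the single positive groups were -1.52 ± 0.25 and -1.56 ± 0.23. Il7r, the receptor for the survival cytokine interleukin-7, read 11.16, 10.97, 10.63 and 10.56 against 11.16, 12.35 and 12.42. Here too replicate 7 was the low double negative array, and the difference was -1.34 with it and -1.51 without it. Il21, the cytokine of follicular helper cells, and Rgcc, a regulator of the cell cycle, fell as well, with differences of -1.01 and -1.19 from double negative cells. The means of Il21 were below 6.50, and so possibly near background, in all sorts, and its other probe set gave 0.01 ± 0.10 (SE). The Rgcc call against CD25+CD49f- cells was lost without replicate 3 or 4 of the double positive cells and without replicate 5 of CD25+CD49f- cells.

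**Figure D5:**
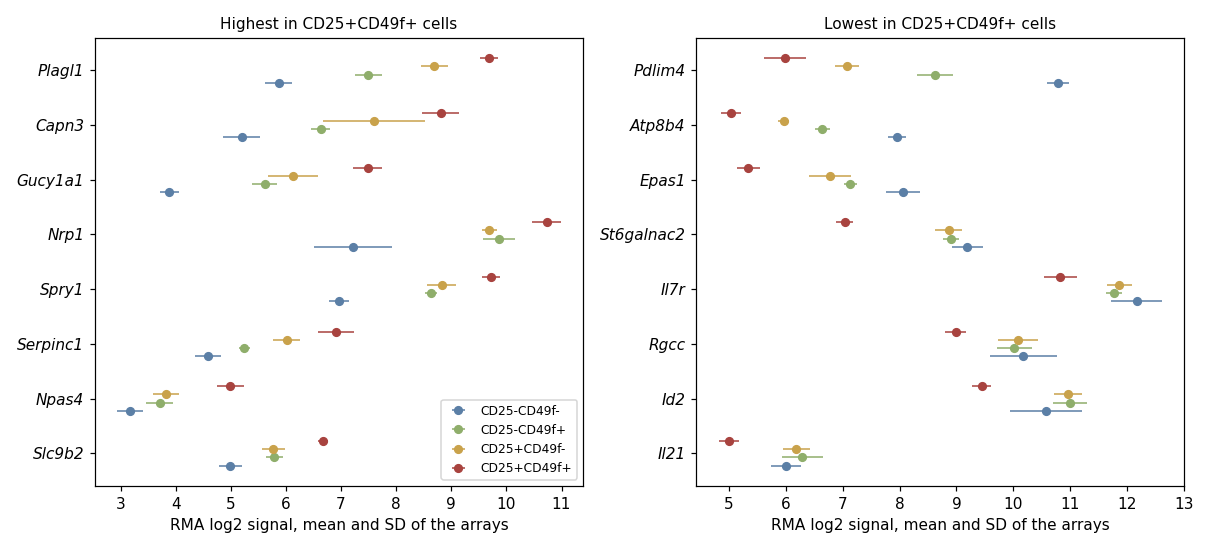
Mean RMA log2 signal with SD (x axis) in the 4 sorts of the 8 genes highest (left) and the 8 genes lowest (right) in double positive cells among those that passed the test against all other sorts; 4 to 7 arrays per point. Gucy1a1 and Plagl1 have means that step up to the double positive cells, while St6galnac2, Id2 and Il21 have closely spaced means in the other sorts and a low one in double positive cells. The means of Il21 are below 6.50, possibly near background, in all sorts.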

How the data were processed

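The deposited log2 values were made by the authors with RMA, per the submitters' processing notes, which corrects background, equalizes the arrays' distributions and gives 1 value per probe set; its version and parameters are not given in the sources used here. Of 45101 probe sets, 34958 named 1 gene, and each of 18194 genes was represented by its brightest probe set on average over all 23 arrays. A model with the 4 sorts as groups was fitted to these values with limma 3.58.1 in R 4.3.3, with empirical Bayes variances. Every adjusted p in the text comes from it, or from the same fit without a named array, by the Benjamini-Hochberg method over all genes, called under 0.05. The number of arrays limits the precision. The gene lists, the members and the comparison were chosen with earlier results of these data known. Named genes were Il2ra, Itga6, Itgb1 and Foxp3, the 12 largest rises and falls, up to 4 called members per list by p with up to 2 of the opposite direction, and the 8 highest and 8 lowest genes that differed from every other sort. Ccnb2, Top2a, Entpd1, Cd3d, Cd3e, Cd3g, Cd22, Fcrla and uncalled list members were named after their values were seen. Replicate numbers were not used as pairs. Promoter motifs were searched on both strands in the 250 bases before each RefSeq start (14453 genes). The code was tested on simulated data. Alternatives covered scaling, probe set choice, covariates, thresholds and leaving out arrays.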

Additional observations from a re-analysis of the deposited data

Results flagged for a closer look

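In 23 of 250 tested groups of a named gene, 1 array stood apart from the rest of its group by more than chance gives in about 1 of 20 groups. Replicate 7 of the double negative cells accounted for 15 of them. It was the low array for Nrp1 (5.73), Pde3b (8.88), Itgae (4.99), Id2 (9.18), Slamf1 (7.71), Runx3 (7.71), Rrm2 (6.76), Hif1a (9.15), Themis (8.82), Xbp1 (9.15) and Il7r (11.16). It was the high array for Vipr1 (9.63), Tnfrsf1a (9.39), Pim2 (9.75) and Oas2 (8.46). The other double negative arrays apart were replicate 1 for Anxa2 (7.89, low), replicate 3 for Spry1 (6.62, low) and replicate 5 for Rpl8 (12.52, high).

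Among double positive arrays, replicate 2 was high for Gucy1a1 (7.89) and Cd160 (6.77), replicate 4 low for Atp8b4 (4.76), replicate 1 low for Il2rb (10.34) and replicate 3 low for Dntt (5.40). The cause was not tested. Of 10092 probe sets that name no single gene and entered no count of genes, 200 (1.98%) were called higher and 380 (3.77%) lower in double positive cells.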

How the results depend on the processing

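The 1389 genes higher and 1007 lower in double positive cells moved by over 1.5 times in some alternatives. Array weights gave 2190 and 1881, every probe set by itself 2118 and 1556 of 34958, and a minimum difference of 1 on the log2 scale 399 and 206. An adjusted p under 0.01 left 1019 and 667. The arrays without Y-linked transcripts gave 797 and 550, and the Y-linked arrays without Xist 727 and 473, with fewer samples. Leaving out the 4 arrays least like their group, chosen after seeing the data, gave 2086 and 1871. Leaving out 1 array at a time gave 1093 to 1518 higher and 760 to 1198 lower. With the replicate block as a fixed term the counts were 1276 and 869, and as a random term 1381 and 1001. Deviations of same-numbered double positive and double negative arrays correlated at 0.41, 0.11, -0.04 and -0.07. Under replicate numbers 2, 3 and 4, 1 array held Y-linked transcripts without Xist and the other held Xist alone. These same-numbered arrays were therefore not from the same mice. Under replicate number 1 both arrays held Xist. The labels do not say whether a number marks a shared sort, so a shared sort was neither shown nor excluded. Among named genes the fixed replicate block ended the calls of Btla, Cd5, Rpl8, Mmp9, Eomes and F2rl2. A fit of the 2 compared groups alone gave 1153 higher and 756 lower. It ended the calls of Fosl2, Rpl8, Cd79b, Xbp1, Mmp9 and Eomes. Median scaling gave 1216 and 1182, 50.7% higher against 58.0%. Of the 129 named genes, 68 had several probe sets. Of their 137 other probe sets, 67 were called between double positive and double negative cells, none in the opposite direction. No call of a named gene reversed, and 14 of the 120 called named genes lost the call under at least 1 setting other than the larger minimum difference and the splits by Y-linked transcripts. Of the 120, 42 had a mean below the highest absent signal of 6.50 in 1 group and 12 in both, which may limit the sizes of their differences. The cause of these shifts was not tested.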
